A study of Mus musculus with 9 samples.

Results

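The Wnt ligands, receptors and modulators were taken by gene symbol as the mouse genes named Wnt, Fzd, Sfrp, Dkk, Rspo or Nkd with their numbers, together with Lrp5, Lrp6, Lgr4, Lgr5, Lgr6, Rnf43, Znrf3, Axin1, Axin2, Lef1, Tcf7, Tcf7l1 and Tcf7l2. There were 56 such genes among the 46078 genes counted. RNA was sequenced from EGFP-SSCs, a wild-type mouse spermatogonial stem cell line that carries a green fluorescent protein, with 3 biological replicates at each of 3 times. The 0 h cells were in normal culture on mitomycin C-treated mouse embryonic fibroblasts, in StemPro-34 medium with EGF, bFGF and GDNF. The 24 h and 48 h cells had been mixed in equal parts with somatic cells from testes of busulfan-exposed mouse pups and grown in α-MEM with KSR, BMP-4, BMP-7, retinoic acid, activin A, testosterone, FSH and BPE, and were then sorted as EGFP-positive cells. Time, medium, feeder and somatic cells all changed together after 0 h and cannot be told apart, and all samples came from 1 cell line. The labels describe sorting for the 24 h and 48 h cells, and the study speaks of sorting cells from different stages.

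Wnt proteins are secreted lipid-modified ligands. On the receiving cell they bind a Frizzled receptor and the co-receptor Lrp5 or Lrp6, which stops the destruction complex built on Axin from degrading β-catenin, and β-catenin then joins TCF/LEF factors on DNA. R-spondins, acting through Lgr4 to Lgr6, protect Frizzled from the ubiquitin ligases Rnf43 and Znrf3, while Sfrp and Dkk proteins act outside the cell, Sfrp by binding Wnt and most Dkk proteins by binding Lrp5 and Lrp6. In the testis, Wnt signals are known to act on the self-renewal and differentiation of spermatogonia, and several of these proteins come from Sertoli and other somatic cells.

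The libraries held 16825251 to 22201892 counts, and the 56 genes took 0.123% to 0.167% of them. Levels are given as CPM, counts per 1000000 counts of a library after TMM scaling over the 9 libraries, and between genes as CPM per kb of exon. The germ cell markers were 10 genes including Ddx4 and Dazl, and all 10 were detected at each time. They summed to 2350 to 3494 CPM at 0 h, 3248 to 3398 CPM at 24 h and 3132 to 3332 CPM at 48 h. Within that sum single genes moved in opposite directions against 0 h. Uchl1 was higher at both times (means of 377.0, 867.6 and 812.0 CPM) and Sall4 at 24 h alone. Tdrd5 was lower at both times (means of 156.1, 92.1 and 89.0 CPM), while Zbtb16 and Dnd1 fell by 48 h alone. Ddx4, Dazl, Mael, Tex14 and Rnf17 were not called. The 0 h libraries themselves differed, with Dazl at 1332, 827.9 and 425.5 CPM. Marker sums of other cells moved with time. The 8 fibroblast and stroma markers summed to 264.4 to 356.7 CPM at 0 h, 2168 to 2441 CPM at 24 h and 2803 to 3063 CPM at 48 h, with Tcf21 at 0 counts in the 0 h libraries. All 8 were tested, with 6 higher and 0 lower at 24 h and at 48 h against 0 h. Most of the sum was Col1a1 (means of 156.7, 1119 and 1394 CPM), Col1a2 and Col3a1, while Lum had means of 1.29, 1.19 and 2.60 CPM. The 6 myoid markers went from 13.7 to 15.8 CPM at 0 h to 149.4 to 207.1 CPM and 267.0 to 317.5 CPM, the 10 Sertoli markers from 24.5 to 25.8 CPM to 77.2 to 129.1 CPM and 117.1 to 127.5 CPM, with Fshr at 0 counts at 0 h, and the 6 Leydig markers from 4.53 to 6.77 CPM to 25.2 to 38.5 CPM and 25.6 to 31.9 CPM, with Hsd3b1 and Insl3 at 0 counts at 0 h. All 6 myoid markers were tested, with 5 higher and 0 lower at both times, and Des had means of 4.32, 3.09 and 4.16 CPM. Only 3 of the 6 Leydig markers were tested, with 2 higher at 24 h and 3 at 48 h. Cyp17a1 had means of 0.207, 0.356 and 0.127 CPM. Of the 9 Sertoli markers tested, 7 rose by 24 h and by 48 h, while Rhox5 fell at both times (-2.57 ± 0.54, edgeR adjusted p = 0.0116, and -3.49 ± 0.58, edgeR adjusted p = 0.00384) and Sox9 fell at 24 h (-0.80 ± 0.19, edgeR adjusted p = 0.0175) and was not called at 48 h (-0.57 ± 0.19, edgeR adjusted p = 0.0613). The 5 endothelial markers went from 69.9 to 77.1 CPM to 28.2 to 36.0 CPM and 20.4 to 23.7 CPM, and the 5 macrophage markers, C1qa at 0 counts at 0 h and 48 h, from 15.7 to 17 CPM to 5.76 to 9.65 CPM and 5.38 to 7.41 CPM. All 5 endothelial markers were tested, with 1 higher and 3 lower at both times. Tek had means of 1.41, 3.51 and 4.08 CPM. The macrophage sum was mostly Cd68, with means of 15.6, 5.82 and 5.42 CPM, while Csf1r had means of 0.293, 1.09 and 0.650 CPM. Of the 2 macrophage markers tested, 1 was higher and 1 lower at 24 h, and 1 was lower at 48 h. The marker sums are shown for each library in the plot of marker lists. Their part in the changes of the Wnt pathway genes was not tested, and in bulk RNA fewer cells of a type and less RNA per cell cannot be told apart.

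**Figure D1:**
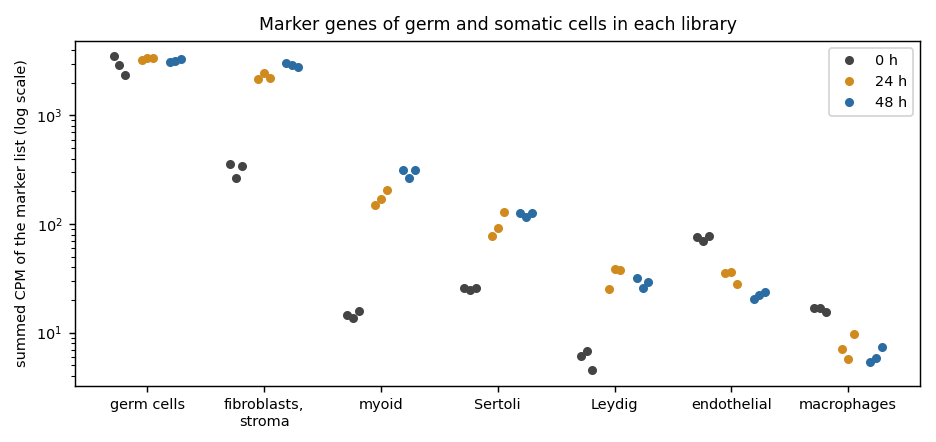
Summed CPM (log scale) of 7 lists of cell type markers, with each point a library and colours marking 0 h, 24 h and 48 h. Fibroblast, myoid, Sertoli and Leydig sums at 24 h and 48 h lie above all 0 h libraries, endothelial and macrophage sums lie below them, and the germ cell sums overlap.

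Of the 56 genes, 47 had enough counts to be tested in at least 1 comparison, and 31 changed in at least 1 of them. The text calls a gene higher or lower where edgeR's quasi-likelihood test gave a Benjamini-Hochberg adjusted p, written edgeR adjusted p, of at most 0.05 over all genes tested. At 24 h against 0 h, 19 of the 46 genes tested were called, beside 25.5% of all genes. Of these 5 were higher, beside 11.4% of all genes, and 14 were lower, beside 14.2% of all genes, so that 10.9% and 30.4% of the tested Wnt pathway genes moved in each direction. At 48 h against 0 h, 27 of 45 were called, beside 31.6% of all genes, with 8 higher (17.8%, beside 13.0% of all genes) and 19 lower (42.2%, beside 18.5%). The share of genes called lower was above that of all genes at both times. Between 24 h and 48 h, 16 of 45 were called (35.6%, beside 21.3%), 8 higher (17.8%, beside 8.61%) and 8 lower (17.8%, beside 12.7%). The median log2 fold change of the tested Wnt pathway genes was -0.15 at 24 h and -0.43 at 48 h against 0 h, and -0.05 from 24 h to 48 h, where the medians of all genes were 0.01, 0.02 and -0.00. The 24 h and 48 h comparisons share their 0 h libraries, and 16 genes were called in the same direction in both. The libraries of both times did not overlap for 28 of 46 genes at 24 h against 0 h (60.9%, beside 43.1% of all genes), 34 of 45 at 48 h against 0 h (75.6%, beside 47.7%) and 24 of 45 between 24 h and 48 h (53.3%, beside 38.5%). A call with a change of at least 2-fold was made for 15, 16 and 3 genes, or 32.6%, 35.6% and 6.67% of those tested, beside 13.2%, 16.7% and 2.97% of all genes. Scaled by library size alone, the calls split into 8 higher and 12 lower at 24 h and into 11 higher and 15 lower at 48 h, with the median of all genes 0.11 higher in both comparisons. With offsets for GC content and length 24 genes passed at 24 h, of which 9 stood higher and 15 lower, and for 48 h these numbers were 32, 14 and 18. The number called higher at 24 h went from 5 to 2 without 0 h replicate 2 and to 3 without any 1 of the 24 h libraries, and the number at 48 h went from 8 to 5 without any 1 of the 48 h libraries. The shares of all genes given here belong to the TMM fit with all libraries kept. They were not worked out for the other settings, so the counts there cannot be set against all genes.

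**Figure D2:**
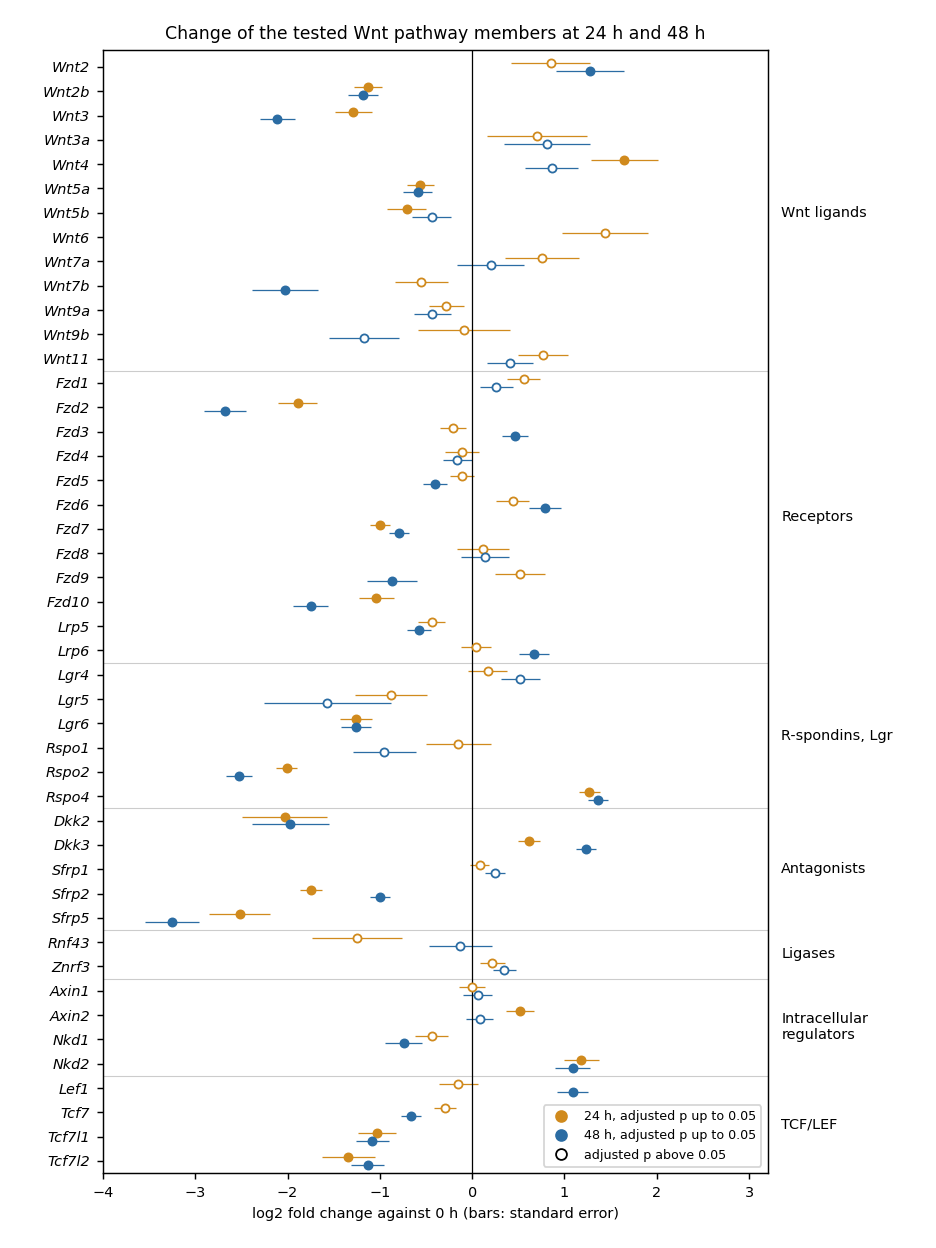
Log2 fold change against 0 h (x axis, bars are standard errors) of each tested Wnt pathway gene (y axis, by role) at 24 h and 48 h, with filled points for edgeR adjusted p of at most 0.05. Sfrp5, Fzd2 and Rspo2 stand farthest to the left, and Wnt4, Rspo4, Nkd2 and Dkk3 are among the filled points to the right.

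Of the 19 Wnt ligands, 13 were tested at 24 h against 0 h, where 1 was higher and 4 lower, and 12 were tested at 48 h against 0 h, where again 1 was higher and 4 lower. Of all genes tested, 11.4% were higher and 14.2% lower at 24 h, and 13.0% and 18.5% at 48 h. Porcupine attaches a lipid to a conserved serine of each Wnt, and the coding sequence around that serine is given here for the 7 called ligands to show how far they share that site. It was read from GENCODE M21 transcripts (GRCm38) on the coding strand, with the serine codon in capitals:
Wnt2 (chr6:18008792-18008815, minus strand, exon 4 of 5): tgtcatggtgtgAGTggctcctgt
Wnt2b (chr3:104951220-104951243, minus strand, exon 4 of 5): tgtcacggtgtgAGTggctcctgt
Wnt3 (chr11:103812314-103812337, plus strand, exon 4 of 5): tgccacgggttgTCCggcagctgc
Wnt4 (chr4:137296345-137296368, plus strand, exon 5 of 5): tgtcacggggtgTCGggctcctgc
Wnt5a (chr14:28522515-28522538, plus strand, exon 5 of 5): tgtcatggagtgTCTggctcctgt
Wnt5b (chr6:119433800-119433823, minus strand, exon 5 of 5): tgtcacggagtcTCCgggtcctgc
Wnt7b (chr15:85537812-85537835, minus strand, exon 4 of 4): tgtcacggtgtgTCAggctcctgt
The stretch was present in all 19 ligands, each within 1 exon, and 14 to 24 of its 24 bases matched Wnt3, counting Wnt3 itself. Wnt2 and Wnt2b, with 14 and 15 matching bases, were the only ligands whose serine codon was AGT. They moved in opposite directions at 48 h.

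Wnt3, a ligand that acts through β-catenin, had 13.7, 18.8 and 20.8 CPM at 0 h, 8.75, 6.61 and 6.43 CPM at 24 h, and 4.00, 4.28 and 4.00 CPM at 48 h. No libraries of the 3 times overlapped, and the 0 h libraries spread the most. The log2 fold change was -1.29 ± 0.20 (SE, edgeR adjusted p = 0.00349) at 24 h and -2.11 ± 0.19 (edgeR adjusted p = 0.000212) at 48 h, and -0.82 ± 0.16 (edgeR adjusted p = 0.00844) from 24 h to 48 h. Wnt2b had 10.8, 11 and 10.0 CPM at 0 h, 4.93, 4.64 and 4.97 CPM at 24 h, and 4.10, 5.16 and 4.65 CPM at 48 h. It had fallen by 24 h, by 1.13 on the log2 scale (SE 0.15, edgeR adjusted p = 0.00167), and its 48 h libraries overlapped those at 24 h, with a log2 fold change of -1.18 ± 0.16 (edgeR adjusted p = 0.00156) against 0 h. Wnt7b followed another course, with 3.38, 4.80 and 6.44 CPM at 0 h, 3.57, 2.56 and 3.85 CPM at 24 h, and 0.974, 1.72 and 0.851 CPM at 48 h. Its 0 h and 24 h libraries overlapped and those at 48 h lay below both, at -2.03 ± 0.36 (edgeR adjusted p = 0.00511) against 0 h and -1.47 ± 0.30 (edgeR adjusted p = 0.00885) against 24 h.

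Wnt5a and Wnt5b, which are best known for signalling without β-catenin, changed less. Wnt5a had 15.7, 13.0 and 13.1 CPM at 0 h, 9.75, 9.12 and 9.55 CPM at 24 h, and 9.68, 8.16 and 9.91 CPM at 48 h, so that all later libraries lay below those at 0 h. Its log2 fold changes were -0.56 ± 0.15 (edgeR adjusted p = 0.0307) and -0.59 ± 0.16 (edgeR adjusted p = 0.0306). Wnt5b had 11.1, 14 and 19.3 CPM at 0 h, 9.85, 8.11 and 9.26 CPM at 24 h, and 11.4, 10.2 and 11.1 CPM at 48 h. It was lower only at 24 h (-0.71 ± 0.21, edgeR adjusted p = 0.0467), and its 48 h libraries overlapped those at 0 h. The edgeR adjusted p for Wnt5b at 24 h ran from 0.0761 to 0.166 without 0 h replicate 2 or 3 or without any 1 of the 24 h libraries, and that for Wnt5a from 0.0583 to 0.121 at 24 h and from 0.0625 to 0.111 at 48 h without 0 h replicate 2 or without any 1 of the later libraries.

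Wnt4 and Wnt2 were the 2 ligands that rose, both at low levels. Wnt4, a ligand of the developing gonad, had 0.738, 0.939 and 1.31 CPM at 0 h, 1.96, 3.63 and 3.85 CPM at 24 h, and 1.74, 1.90 and 1.80 CPM at 48 h. It was higher at 24 h (1.65 ± 0.36, edgeR adjusted p = 0.0144), and its 48 h libraries still lay above those at 0 h without passing the test (0.86, edgeR adjusted p = 0.0625). Wnt2 had 0.430, 0.544 and 0.805 CPM at 0 h, 1.56, 0.693 and 0.975 CPM at 24 h, and 1.02, 1.76 and 1.55 CPM at 48 h, with a log2 fold change of 1.28 ± 0.37 (edgeR adjusted p = 0.0365) at 48 h. Without 0 h replicate 2, 24 h replicate 2 or 24 h replicate 3 the edgeR adjusted p for Wnt4 was 0.0596 to 0.064, and that for Wnt2 was 0.0524 to 0.131 with any 1 of its 6 libraries left out except 0 h replicate 3. The fibroblast, myoid, Sertoli and Leydig marker sums were also higher at those hours, and their part in these rises was not tested.

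Wnt3a, Wnt6, Wnt7a, Wnt9a, Wnt9b and Wnt11 were tested and not called. Of these Wnt9a had the highest mean, 8.06 ± 1.62 CPM (SD, n = 3) at 0 h, 6.63 ± 0.0412 CPM at 24 h and 5.95 ± 0.671 CPM at 48 h, and the others had means between 0.328 CPM (Wnt6 at 0 h) and 3.27 CPM (Wnt7a at 24 h). Wnt1, Wnt8a, Wnt8b, Wnt10a, Wnt10b and Wnt16, along with Dkk1, Dkk4 and Rspo3, were tested in no comparison, with at most 15 counts in any library. In the mouse genome 4 pairs of these ligands lie within 100 kb of each other. Wnt3 and Wnt9b are 24.3 kb apart on chr11, transcribed away from each other. Wnt3 fell at each step, while Wnt9b, at 1.42 ± 0.395 CPM, 1.34 ± 0.744 CPM and 0.627 ± 0.212 CPM, was not called. Wnt3a and Wnt9a, 16.2 kb apart on the same chromosome, were both not called, Wnt10a lies 6.19 kb from Wnt6, and Wnt10b lies 11.7 kb from Wnt1.

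**Figure D3:**
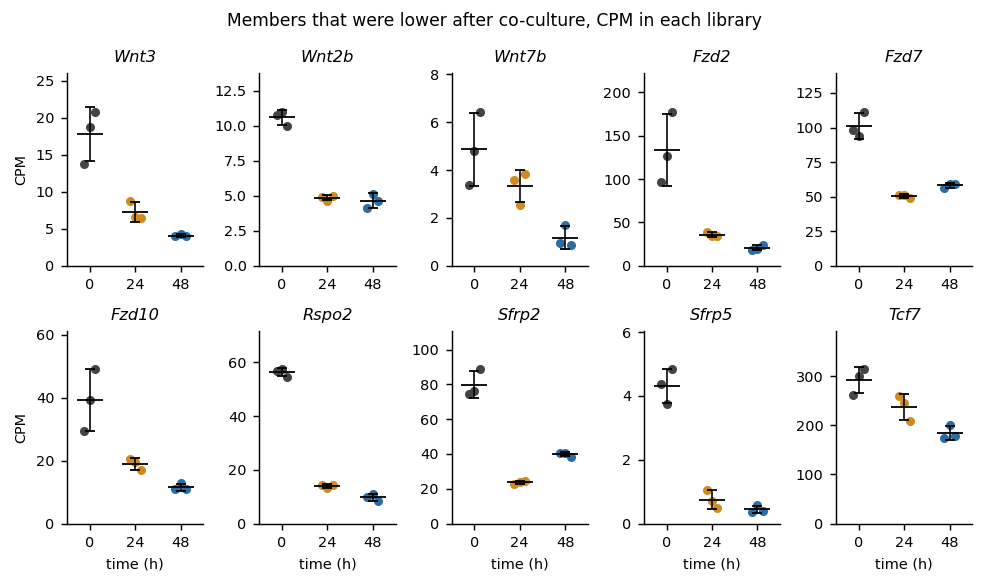
CPM in each library (points), with mean and SD (bars, n = 3), of 10 Wnt pathway genes that were lower at 24 h or 48 h than at 0 h. Each axis starts at 0 and has its own scale. The means of Sfrp2 and Fzd7 were lowest at 24 h and in part regained at 48 h, that of Fzd7 by less.

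Among the 10 Frizzled receptors and the co-receptors Lrp5 and Lrp6, all 12 were tested. None was higher and 3 were lower at 24 h, while at 48 h against 0 h 3 were higher and 6 lower, beside the shares of all genes given with the ligands. Fzd2 (chr11:102604396-102608058) had 96.2, 126.5 and 177.7 CPM at 0 h, 39.3, 34.0 and 34.3 CPM at 24 h, and 18.7, 19.7 and 23.9 CPM at 48 h. Each step lay below the one before without overlap, and 0 h replicate 3 was the highest library. The log2 fold change was -1.89 ± 0.21 (edgeR adjusted p = 0.000763) at 24 h, -2.68 ± 0.23 (edgeR adjusted p = 0.000199) at 48 h, which is 6.39-fold lower, and -0.78 ± 0.11 (edgeR adjusted p = 0.0015) between the later times. The last of these calls was lost with all 9 libraries in 1 fit (-0.77, edgeR adjusted p = 0.0533). Fzd10 had 29.4, 39.3 and 49.0 CPM at 0 h, 20.6, 19.5 and 16.9 CPM at 24 h, and 11, 12.9 and 10.9 CPM at 48 h. It also fell at each step, by 1.04 (SE 0.19, edgeR adjusted p = 0.00655) at 24 h, by 1.75 (SE 0.19, edgeR adjusted p = 0.000555) at 48 h and by 0.71 (SE 0.11, edgeR adjusted p = 0.00265) from 24 h to 48 h. Fzd7, a receptor known from stem cells, had 98.3, 93.6 and 111.4 CPM at 0 h, 51.3, 51.2 and 48.9 CPM at 24 h, and 56.3, 59.1 and 59.0 CPM at 48 h. It was 2.00-fold lower at 24 h (-1.0 ± 0.11, edgeR adjusted p = 0.000657) and remained lower at 48 h (-0.79 ± 0.11, edgeR adjusted p = 0.00142). The small rise of Fzd7 after 24 h (0.21 ± 0.07, edgeR adjusted p = 0.0478) was lost with any 1 of the 6 libraries left out, at edgeR adjusted p = 0.068 to 0.132.

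Fzd6, Fzd3 and Lrp6 were higher at 48 h. Fzd6, a receptor of planar polarity signalling, had 9.10, 8.5 and 6.64 CPM at 0 h, 10.6, 11.7 and 10.6 CPM at 24 h, and 13.9, 13.5 and 14.5 CPM at 48 h, and was called at 48 h against 0 h (0.79 ± 0.17, edgeR adjusted p = 0.0107). From 24 h to 48 h the log2 fold change of Fzd6 was 0.36 ± 0.10 (edgeR adjusted p = 0.0392), and it had edgeR adjusted p = 0.0773 to 0.128 without 24 h replicate 1 or 3 or 48 h replicate 1 or 3. The co-receptor Lrp6 had 122.1, 121.3 and 84.8 CPM at 0 h, 115.4, 114.4 and 108.0 CPM at 24 h, and 166.4, 176.4 and 178.4 CPM at 48 h. Its 48 h libraries stood above the rest (0.67 ± 0.16, edgeR adjusted p = 0.0179 against 0 h, and 0.63 ± 0.06, edgeR adjusted p = 0.000285 against 24 h), and the first of these calls had edgeR adjusted p = 0.058 to 0.068 without any 1 of the 48 h libraries. Fzd3 had 73.4, 65.4 and 55.1 CPM at 0 h, 59.6, 55.2 and 53.4 CPM at 24 h, and 87.6, 83.3 and 94.6 CPM at 48 h. It was higher at 48 h than at 24 h (0.67 ± 0.08, edgeR adjusted p = 0.000788), by 0.37 (edgeR adjusted p = 0.0242) with offsets for GC content and length. Its call against 0 h (0.46 ± 0.14, edgeR adjusted p = 0.0456) went to a log2 fold change of 0.04 (edgeR adjusted p = 0.892) with the same offsets, and had edgeR adjusted p = 0.0876 to 0.158 without 0 h replicate 2 or any 1 of the 48 h libraries.

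Lrp5, the other co-receptor, moved in the opposite direction. It had 161.5, 181.0 and 223.3 CPM at 0 h, 155.7, 135.9 and 123.6 CPM at 24 h, and 122.1, 135.5 and 119.7 CPM at 48 h, and was lower at 48 h (-0.58 ± 0.13, edgeR adjusted p = 0.0145, and 0.0741 to 0.0743 without 48 h replicate 1 or 3). Per kb of exon the 2 co-receptors went from 19.4 ± 3.24 for Lrp5 and 8.0 ± 1.56 for Lrp6 at 0 h to 12.9 ± 0.872 and 12.7 ± 0.471 at 48 h (CPM per kb, SD, n = 3). Per kb of the longest transcript the means were 21.2 and 11.7 at 0 h and 14.1 and 18.5 at 48 h, which puts Lrp6 above Lrp5 at 48 h. Fzd9 had 3.32, 5.44 and 6.70 CPM at 0 h, 8.65, 6.56 and 6.97 CPM at 24 h, and 2.66, 2.91 and 2.85 CPM at 48 h. The 48 h libraries lay below the other 6, at -1.39 ± 0.17 (edgeR adjusted p = 0.000834) against 24 h and -0.87 ± 0.27 (edgeR adjusted p = 0.0482) against 0 h. Fzd5, at 13.3 ± 0.535 CPM, 12.3 ± 0.735 CPM and 10.0 ± 0.328 CPM, was lower at 48 h against 0 h by 0.40 (SE 0.13, edgeR adjusted p = 0.0483). The calls against 0 h were lost, for Fzd5 with any 1 of its 6 libraries left out (edgeR adjusted p = 0.0579 to 0.168) and for Fzd9 with any 1 left out except 0 h replicate 1 (0.111 to 0.153). With all libraries kept, the Fzd5 call was also lost in 8 other settings, among them the DESeq2 Wald test (adjusted p = 0.0714). The Fzd9 call was lost in 4 such settings (edgeR adjusted p = 0.0527 to 0.0878). Fzd1, Fzd4 and Fzd8 were called in no comparison, with means of 7.77 to 11.4 CPM, 7.00 to 7.83 CPM and 3.22 to 3.52 CPM.

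The R-spondins changed places. Of the 7 R-spondins and Lgr receptors, 6 were tested against 0 h, and at each time 1 was higher and 2 were lower, beside the shares of all genes given with the ligands. Rspo2 (chr15:43020794-43170826), which amplifies Wnt signals at the receptor, had 57.0, 57.4 and 54.7 CPM at 0 h, 14.5, 13.1 and 14.3 CPM at 24 h, and 9.94, 11 and 8.21 CPM at 48 h. Its libraries at the 3 times did not overlap, and the log2 fold change was -2.01 ± 0.11 (edgeR adjusted p = 3.5e-05) at 24 h and -2.53 ± 0.14 (edgeR adjusted p = 2.71e-05) at 48 h. The further fall of Rspo2 after 24 h (-0.52 ± 0.12, edgeR adjusted p = 0.0178) had edgeR adjusted p = 0.0599 to 0.0611 without 24 h replicate 1 or 3 or 48 h replicate 1. Rspo4 (chr2:151842927-151874668), a family member known for its role in nails, had 12, 13.3 and 14.2 CPM at 0 h, 31.6, 31.7 and 32.0 CPM at 24 h, and 32.1, 34.1 and 34.8 CPM at 48 h. All later libraries lay above those at 0 h, with log2 fold changes of 1.27 ± 0.11 (edgeR adjusted p = 0.000274) and 1.36 ± 0.11 (edgeR adjusted p = 0.000159).

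Per length the ratio of Rspo4 to Rspo2 was 0.454 to 0.561 in the 0 h libraries, 4.69 to 5.21 at 24 h and 6.66 to 9.14 at 48 h. With the longest transcript as the length it was 0.296 to 0.367, 3.06 to 3.41 and 4.35 to 5.97. Rspo2 went from 63.3% ± 2.61 (SD, n = 3) of the R-spondin level per kb to 16.1% ± 0.672 and 11.4% ± 1.63, and Rspo4 from 31.8% ± 2.15 to 79.0% ± 1.62 and 85.2% ± 1.88. The sum of the 4 R-spondins moved less, at 17.4 ± 0.516, 17 ± 0.415 and 16.7 ± 0.554 CPM per kb of exon at the 3 times, although per kb of the longest transcript it was 23.4, 18.5 and 17.7. Rspo1 was tested and not called, with means of 1.56, 1.41 and 0.80 CPM.

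Among the R-spondin receptors, Lgr6 had 10.7, 12.5 and 13.2 CPM at 0 h, 4.47, 5.76 and 4.92 CPM at 24 h, and 4.51, 5.60 and 5.05 CPM at 48 h. Lgr6 was lower at both times, by 1.26 on the log2 scale at 24 h (SE 0.17, edgeR adjusted p = 0.00175) and at 48 h (SE 0.16, edgeR adjusted p = 0.0012). Lgr4 had 32.8, 26.5 and 18.9 CPM at 0 h, 31.0, 26.9 and 30.4 CPM at 24 h, and 37.8, 34.8 and 39.3 CPM at 48 h. It was higher at 48 h than at 24 h (0.35 ± 0.09, edgeR adjusted p = 0.0204), and not called against 0 h (0.52 ± 0.21, edgeR adjusted p = 0.0997), where the 0 h libraries spread widely. The Lgr4 call had edgeR adjusted p = 0.0524 to 0.0752 without 24 h replicate 1 or 2 or 48 h replicate 1 or 3. Lgr5, a marker of stem cells in several epithelia, was under 1 CPM on average at all 3 times and was not called.

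**Figure D4:**
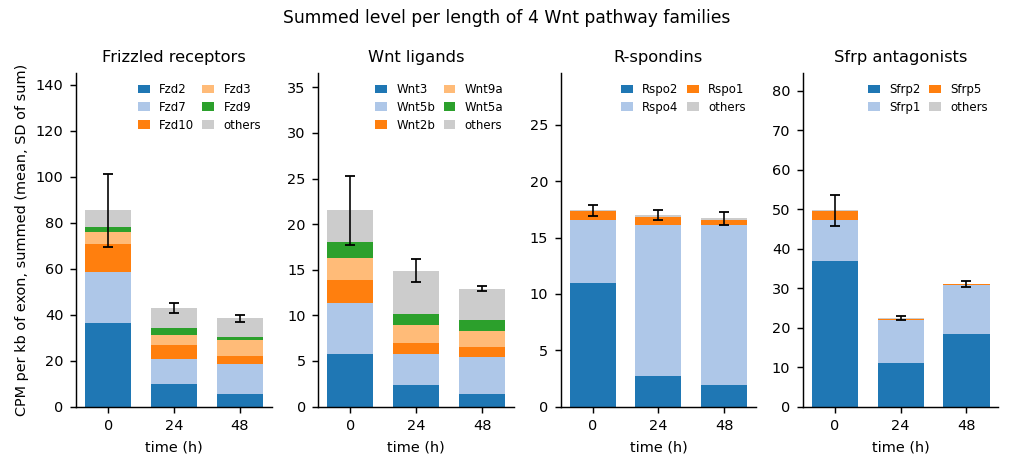
Summed level per kb of exon (y axis, mean with SD of the sum, n = 3) of the Frizzled, Wnt, R-spondin and Sfrp families at 0 h, 24 h and 48 h, with the members that led at 0 h in colour. The mean Frizzled sum is 85.3 at 0 h and 38.4 at 48 h, while the R-spondin sum lies between 16.7 and 17.4 and passes from mostly Rspo2 to mostly Rspo4.

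The composition of the other families also moved, as the plot of family sums shows. The Frizzled sum was 71.3, 81.7 and 102.8 CPM per kb at 0 h, 45.1, 42.7 and 40.7 at 24 h, and 37.0, 38.3 and 39.8 at 48 h. Fzd2 made up 42.1% ± 5.18 of it at 0 h, 22.9% ± 1.05 at 24 h and 14.7% ± 1.41 at 48 h (SD, n = 3), Fzd7 26.5% ± 3.44, 26.0% ± 0.789 and 33.4% ± 0.690, and Fzd3 6.16% ± 1.93, 10.2% ± 0.116 and 18.0% ± 0.875. The Frizzled of highest level per kb was thus Fzd2 at 0 h (36.4 ± 11.2 CPM per kb, beside 22.3 ± 2.03 for Fzd7), while at 24 h Fzd2 and Fzd7 were close (9.79 ± 0.815 and 11.1 ± 0.293) and at 48 h Fzd7 (12.8 ± 0.356) stood above Fzd3 (6.91 ± 0.442) and Fzd2 (5.66 ± 0.749). The Wnt ligands summed to 21.5 ± 3.76 CPM per kb at 0 h, 14.9 ± 1.23 at 24 h and 12.9 ± 0.280 at 48 h. Wnt3 held 26.8%, 15.8% and 10.3% of that sum on average and Wnt5b 25.7%, 23.0% and 31.7%.

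The secreted antagonists comprise 4 Sfrp and 4 Dkk genes, of which 5 were tested against 0 h. At each time 1 of them was higher and 3 were lower, beside the shares of all genes given with the ligands. Sfrp5 (chr19:42197971-42202252), which binds Wnt ligands, had 4.36, 3.76 and 4.83 CPM at 0 h, 1.06, 0.693 and 0.487 CPM at 24 h, and 0.359, 0.574 and 0.400 CPM at 48 h. Its later libraries all lay below 0 h, at -2.52 ± 0.33 (edgeR adjusted p = 0.00145) and -3.25 ± 0.29 (edgeR adjusted p = 0.000208), the largest fall of the set. Sfrp2 had 74.4, 76.2 and 88.6 CPM at 0 h, 22.7, 23.7 and 24.6 CPM at 24 h, and 40.5, 40.4 and 38.5 CPM at 48 h. The 24 h libraries were thus the lowest, at -1.75 ± 0.12 (edgeR adjusted p = 7.06e-05) against 0 h, and Sfrp2 rose again by 48 h (0.76 ± 0.07, edgeR adjusted p = 0.000309) while staying below 0 h (-1.0 ± 0.11, edgeR adjusted p = 0.000586). Sfrp1, which also binds Wnt, had 43.7, 46.1 and 46.1 CPM, 48.2, 46.5 and 48.9 CPM, and 49.6, 51.4 and 60.0 CPM at the 3 times, and was not called (0.25 ± 0.11, edgeR adjusted p = 0.144 at 48 h against 0 h). Per kb the Sfrp sum was 49.7 ± 3.99, 22.4 ± 0.487 and 31.1 ± 0.735 at the 3 times, and Sfrp1 held 20.9%, 48.8% and 39.4% of it.

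Dkk3, a Dickkopf relative that is also found inside cells, had 13.2, 13.7 and 15.2 CPM at 0 h, 22.2, 19.8 and 22.8 CPM at 24 h, and 33.9, 33.3 and 30.9 CPM at 48 h. It rose at each step without overlap, by 0.62 (SE 0.12, edgeR adjusted p = 0.00946) at 24 h and 1.23 (SE 0.11, edgeR adjusted p = 0.000245) at 48 h against 0 h, and by 0.61 (SE 0.08, edgeR adjusted p = 0.00149) between them. The 24 h call of Dkk3 had edgeR adjusted p = 0.0552 without 0 h replicate 2 and 0.0523 without 24 h replicate 1. The fibroblast, myoid, Sertoli and Leydig marker sums were also higher at those times, and their part in the rise of Dkk3 was not tested. Dkk2, an antagonist at the co-receptor, fell from 2.21, 1.63 and 1.01 CPM at 0 h to 0.553, 0.373 and 0.244 CPM at 24 h and 0.461, 0.309 and 0.450 CPM at 48 h. The log2 fold change of Dkk2 was -2.03 ± 0.46 (edgeR adjusted p = 0.0164) and -1.97 ± 0.42 (edgeR adjusted p = 0.0108). Its edgeR adjusted p was 0.0701 to 0.0702 at 24 h without 24 h replicate 2 or 3, and 0.0513 at 48 h without 48 h replicate 2. Sfrp4, tested only between 24 h and 48 h, was not called.

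**Figure D5:**
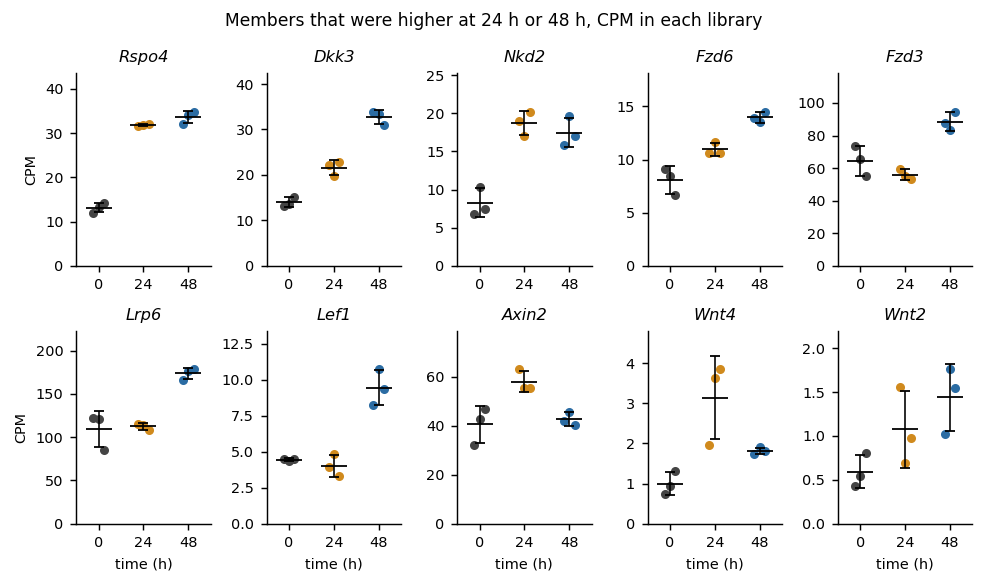
CPM in each library (points), with mean and SD (bars, n = 3), of 10 Wnt pathway genes that were called higher in at least 1 comparison. Rspo4 and Nkd2 had risen by 24 h, Dkk3 rose at each step, Lrp6 and Lef1 stood out at 48 h, and Axin2 and Wnt4 had their highest means at 24 h.

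Inside the cell, 2 of the 4 negative regulators were higher at 24 h, and 1 was higher and 1 lower at 48 h, beside the shares of all genes given with the ligands. Axin2, a scaffold of the β-catenin destruction complex whose gene is itself widely used as a readout of β-catenin, had 32.3, 42.6 and 46.9 CPM at 0 h, 63.0, 55.6 and 55.5 CPM at 24 h, and 41.9, 45.8 and 40.1 CPM at 48 h. The 24 h libraries stood above all others, at 0.52 ± 0.15 (edgeR adjusted p = 0.0417) against 0 h, and those at 48 h overlapped 0 h (0.08 ± 0.15, edgeR adjusted p = 0.742) and were lower than at 24 h (-0.44 ± 0.08, edgeR adjusted p = 0.00469, and 0.091 with all 9 libraries in 1 fit). The call at 24 h had edgeR adjusted p = 0.0999 to 0.162 without 0 h replicate 2 or any 1 of the 24 h libraries. Axin1, its constitutive relative, was called in no comparison, with 153.8 ± 29.1 CPM at 0 h, 153.5 ± 7.51 CPM at 24 h and 159.3 ± 18.5 CPM at 48 h. Nkd2, which binds Dishevelled, had 6.82, 10.4 and 7.50 CPM at 0 h, 19.0, 17 and 20.2 CPM at 24 h, and 15.8, 19.6 and 17 CPM at 48 h. It was higher at both times without overlap (1.18 ± 0.19, edgeR adjusted p = 0.00336, and 1.09 ± 0.19, edgeR adjusted p = 0.00469). Its relative Nkd1 had 35.7, 52.6 and 60.4 CPM, 38.5, 34.8 and 36.1 CPM, and 28.0, 34.9 and 26.0 CPM at the 3 times, and was lower at 48 h (-0.74 ± 0.20, edgeR adjusted p = 0.0304). That call had edgeR adjusted p = 0.0606 to 0.121 without 0 h replicate 2 or 3 or 48 h replicate 1 or 3. The receptor-removing ligases were not called, Znrf3 with means of 58.3 to 74.0 CPM and Rnf43 with means under 1 CPM.

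Tcf7 made up 93.1% to 95.6% of the summed level per kb of the 4 TCF/LEF factors at the 3 times. It had 262.0 to 313.9 CPM at 0 h, 260.0, 245.7 and 208.4 CPM at 24 h, and 173.5, 200.3 and 178.3 CPM at 48 h. Every later library lay below all those at 0 h. Tcf7 was not called at 24 h (-0.29 ± 0.12, edgeR adjusted p = 0.125) and was lower at 48 h than at 0 h (-0.66 ± 0.11, edgeR adjusted p = 0.00332) and than at 24 h (-0.36 ± 0.08, edgeR adjusted p = 0.0158). Without 24 h replicate 1 or 2 or 48 h replicate 1 or 3 the last of these had edgeR adjusted p = 0.0514 to 0.0942. Lef1, a factor that usually activates targets, had 4.49, 4.35 and 4.48 CPM at 0 h, 3.92, 4.80 and 3.31 CPM at 24 h, and 8.25, 10.7 and 9.36 CPM at 48 h. It was not called at 24 h (-0.15 ± 0.21, edgeR adjusted p = 0.676) and stood above all earlier libraries at 48 h, at 1.09 ± 0.17 (edgeR adjusted p = 0.00263) against 0 h and 1.24 ± 0.17 (edgeR adjusted p = 0.00169) against 24 h. Lef1 held 0.426% of the TCF/LEF level per kb of exon at 0 h and 1.43% at 48 h, or 0.937% and 3.13% per kb of the longest transcript.

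Tcf7l1, best known as a repressor, had 20.1, 27.2 and 32.9 CPM at 0 h, 14.6, 14.1 and 10.4 CPM at 24 h, and 13.0, 12.2 and 12.5 CPM at 48 h. It was lower at both times (-1.03 ± 0.21, edgeR adjusted p = 0.0105, and -1.08 ± 0.18, edgeR adjusted p = 0.00384). Tcf7l2 had 9.59, 9.34 and 7.85 CPM at 0 h, 4.78, 3.57 and 2.19 CPM at 24 h, and 4.05, 3.75 and 4.40 CPM at 48 h. All later libraries lay below 0 h (-1.34 ± 0.29, edgeR adjusted p = 0.0131, and -1.13 ± 0.18, edgeR adjusted p = 0.00294), and without 24 h replicate 2 the 24 h call had edgeR adjusted p = 0.0557. For 8 of the called genes an annotated gene on the other strand overlapped 3.15% to 17.8% of the exon bases, the most for Fzd5 (17.8%), Sfrp2 (16.1%) and Lef1 (13.7%), and strand is not given for the counting, so reads from such partners cannot be told apart.

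RefSeq promoter windows (GRCm38.p6), from 250 bases before to 50 bases after a start, were at hand for 37 of the 56 genes, in 46 windows. The core TCF/LEF motif CTTTGAT, searched on both strands, was in 2 of these windows, and 3.73% of all 32851 windows held it. The retinoic acid half-site pairs with a spacing of 5 or of 2 bases, searched on both strands because retinoic acid was in the medium, were in 0 of the 46 windows and in 0.00913% of all windows each. The windows that held the TCF/LEF core belonged to Wnt11, which was called in no comparison, and Wnt5b, which was lower at 24 h. In the stretches below, given 5′ to 3′ on the strand of the gene, the motif is in capitals, 51 bases before the Wnt11 start, where it reads on the opposite strand, and 71 bases before the Wnt5b start:
Wnt11 (chr7:98835036-98835092, plus strand): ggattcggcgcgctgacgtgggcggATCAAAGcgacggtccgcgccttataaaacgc
Wnt5b (chr6:119449426-119449482, minus strand): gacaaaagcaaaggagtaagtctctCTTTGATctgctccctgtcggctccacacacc
The windows were rich in CpG, with a median of 24 CpG and 67% GC beside 7 CpG and 52.7% GC in all windows. Rspo4, which rose, and Sfrp5, which fell the most, are shown by the 100 bases before their starts, which hold 16 and 11 CpG (capitals):
Rspo4 (chr2:151842827-151842926, plus strand): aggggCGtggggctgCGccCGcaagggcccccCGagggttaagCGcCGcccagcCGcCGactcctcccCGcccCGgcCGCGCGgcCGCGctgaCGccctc
Sfrp5 (chr19:42202253-42202352, minus strand): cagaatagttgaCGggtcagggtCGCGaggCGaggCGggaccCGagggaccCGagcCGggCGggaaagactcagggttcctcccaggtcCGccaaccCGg
A stretch of the same length held 4 CpG for Lef1, which was higher at 48 h, and 16 for Axin2, which was higher at 24 h. For Wnt3 and Fzd10, which fell, it held 9 and 16. Such matches and CpG counts describe the letters of the windows and were not tested against the changes.

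Other genes of the pathway were read from a list of 50, of which 49 were tested. Against 0 h, 6 of them rose and 12 fell by 24 h, where 11.4% and 14.2% of all genes did, and 7 rose and 16 fell by 48 h, where 13.0% and 18.5% of all genes did. From 24 h to 48 h, 3 rose and 8 fell, beside 8.61% and 12.7% of all genes. The secreted inhibitors Sost and Wif1 fell to 1.10 CPM or less in every later library. Sost, which binds Lrp5 and Lrp6, had 24.9, 33.1 and 41.4 CPM at 0 h, 0.804, 0.853 and 0.780 CPM at 24 h, and 0.102, 1.10 and 0.200 CPM at 48 h (-5.34 ± 0.24, edgeR adjusted p = 1.8e-05, and -6.06 ± 0.61, edgeR adjusted p = 0.00038). Wif1, which binds Wnt, went from 10.2, 11.4 and 12.7 CPM to 0.533 to 0.829 CPM and 0.397 to 0.851 CPM (-4.14 ± 0.24, edgeR adjusted p = 4.24e-05, and -4.12 ± 0.29, edgeR adjusted p = 7.84e-05). In contrast Draxin, a secreted inhibitor that also guides axons, rose from 1.35, 1.14 and 1.61 CPM to 11.1 to 14.5 CPM and 16.3 to 16.7 CPM (3.24 ± 0.21, edgeR adjusted p = 7.17e-05, and 3.59 ± 0.19, edgeR adjusted p = 2.1e-05), and Wls, which carries Wnt to the cell surface, had means of 5.37, 12.9 and 18.7 CPM (1.26 ± 0.25, edgeR adjusted p = 0.00868, and 1.81 ± 0.23, edgeR adjusted p = 0.0011). Of the 7 planar polarity genes, Prickle1 (69.2, 14.2 and 16.7 CPM on average) and Celsr1 (37.6, 22 and 9.68 CPM) were lower at both times. Their edgeR adjusted p was 0.00259 or below. Others of that list went the opposite way. Prickle2 was higher at both times (0.67 ± 0.15, edgeR adjusted p = 0.0169, and 0.57 ± 0.15, edgeR adjusted p = 0.0266). Vangl1 was higher at 48 h alone (0.51 ± 0.16, edgeR adjusted p = 0.0433). Vangl2 and Celsr2 fell by 48 h alone, and Celsr3 was not called.

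In a list of 12 genes used as β-catenin readouts, 11 were tested. By 24 h 2 of them rose and 4 fell, and by 48 h 3 rose and 4 fell, beside the shares of all genes given above (11.4% and 14.2%, and 13.0% and 18.5%). Sp5, a direct target in many tissues, had 47.9, 57.6 and 83.4 CPM at 0 h, 7.94, 6.72 and 6.48 CPM at 24 h, and 4.15, 4.46 and 4.10 CPM at 48 h (-3.15 ± 0.22, edgeR adjusted p = 9.62e-05, and -3.88 ± 0.22, edgeR adjusted p = 3.15e-05). Ccnd1, the G1 cyclin D1, fell at each step, from 160.6, 189.2 and 206.6 CPM to 78.9, 76.8 and 74.5 CPM and to 35.2, 39.0 and 36.8 CPM (-1.27 ± 0.11, edgeR adjusted p = 0.000273, and -2.32 ± 0.12, edgeR adjusted p = 2.1e-05). The genes of the list that rose, and the other 2 that fell, are named here after their values were seen. Ascl2, a transcription factor of intestinal stem cells, had 12.7, 11.7 and 12.3 CPM at 0 h, 36.3, 32.9 and 39.0 CPM at 24 h, and 24.5, 30.2 and 26.3 CPM at 48 h (1.56 ± 0.12, edgeR adjusted p = 0.00015, and 1.14 ± 0.13, edgeR adjusted p = 0.000604). Cd44, a hyaluronan receptor, was higher at both times (0.90 ± 0.22, edgeR adjusted p = 0.023, and 1.19 ± 0.22, edgeR adjusted p = 0.00563). Cdx1 was called at 48 h (1.06 ± 0.30, edgeR adjusted p = 0.0338) and not at 24 h (0.88 ± 0.33, edgeR adjusted p = 0.092). Tnfrsf19 and T were lower at both times, at edgeR adjusted p = 0.00262 or below. Tnfrsf19 had means of 27.2, 12.7 and 11.7 CPM, while T had 23, 45 and 39 counts at 0 h and at most 3 counts in any later library. The members of the Wnt set that serve as such readouts differed among themselves, since Axin2 was higher at 24 h alone, Lef1 was higher at 48 h, Tcf7 and Nkd1 were lower at 48 h, and Lgr5, Rnf43 and Znrf3 were not called.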

How the data were processed

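The authors deposited raw counts of reads per gene for 9 mouse libraries, 3 biological replicates at each time. Per the submitters' processing notes fastp, HISAT2 and featureCounts were used on GRCm38; the annotation release and the strand setting are not given in the sources used here. The counts were used as deposited. Symbols, positions and exons came from GENCODE M21 (GRCm38), which held 45229 of 46078 identifiers, and those left took at most 0.121% of the counts of a library. Library totals were 16825251 to 22201892 counts, and within each time every replicate pair was further apart than counting noise allows (chi-square per degree of freedom 7.13 to 81.4, highest among the 0 h libraries).

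Each comparison used its 6 libraries with filterByExpr, TMM and edgeR 4.0.16 (quasi-likelihood F test, two-sided; R 4.3.3, limma 3.58.1), adjusted by Benjamini-Hochberg over all genes tested with a threshold of 0.05. Alternatives were DESeq2 1.42.0, other scalings and filters, 1 fit of all 9 libraries, offsets for GC content and length, the replicate block and leaving out each library. The fit was checked on simulated data. The Wnt pathway genes and lists were chosen with earlier results of these data known. Every called gene with at least 1 CPM on average at 1 time was given its statistics, and at most 8 called genes of the other lists, those with at least 10 CPM, were named by size of change. The readouts Ascl2, Cd44, Cdx1, Tnfrsf19 and T were added outside that rule, after their values were seen. The same holds for the planar polarity genes Prickle2, Vangl1, Vangl2, Celsr2 and Celsr3. Promoter sequences are from RefSeq (GRCm38.p6).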

Additional observations from a re-analysis of the deposited data

How the results depend on the processing

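No called log2 fold change of a Wnt pathway gene changed sign under any alternative, and 12 of 19 calls at 24 h, 18 of 27 at 48 h against 0 h and 9 of 16 between 24 h and 48 h held in every alternative that tested the gene. The 18 include Sfrp5, which was tested in 14 alternatives and not with at least 10 counts asked of every library. Calls of Wnt2, Wnt5a, Wnt5b, Nkd1, Axin2, Fzd3, Fzd5, Fzd6, Fzd7 and Fzd9 were among those lost in settings that kept all libraries. The value of Axin2 at 48 h against 0 h, which was not called, turned to -0.06 without 0 h replicate 1 (leave-one-out range -0.06 to 0.21). Asking for a change of at least 2-fold as well left 15 calls at 24 h, 16 at 48 h and 3 between 24 h and 48 h, by construction a stricter rule. With all 9 libraries in 1 fit the last comparison had 10 calls, and those of Axin2, Fzd2, Fzd6, Fzd7, Lgr4 and Tcf7 were lost (edgeR adjusted p = 0.0533 to 0.291); the cause was not tested. Leaving out 1 library gave 13 to 21 calls at 24 h, 19 to 31 at 48 h and 11 to 16 between them. DESeq2 made 19, 25 and 14 calls. With the replicate number as a block the counts were 16, 21 and 14, and 21, 31 and 17 with GC content and length offsets too, beside 24, 32 and 19 with the offsets alone. Apart from the 2-fold rule, the share of all genes called was not worked out for these alternatives. Replicates that share a number did not deviate together (correlations from -0.28 to 0.19) and not every library correlated best with its own number, so the numbers were not treated as pairs. Lgr5 and Rnf43, both under 1 CPM on average at each time, rest on at most 18 counts in a library. Wnt6, not called at 24 h, passed the threshold there in 3 of 14 alternatives (lowest adjusted p 0.0185), and Sfrp4, not tested at 48 h against 0 h, in 1 of 7 (0.00719). Other genes that were not called also passed in some alternatives. Among them were Fzd1 at 24 h in 6 of 15 (0.012), Znrf3 at 48 h against 0 h in 5 of 15 (0.0158) and Wnt11 at 24 h in 4 of 15 (0.0352).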
